A study of Bos taurus with 17 samples.

Results

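The genes of the early secretory pathway, which carries proteins from the endoplasmic reticulum (ER) to the Golgi, were followed in bovine mesenchymal stem cells grown on plastic or on cellulose scaffolds. The 74 genes, of 12894 in the deposited table, were taken by their symbols, from a list of gene families drawn up with earlier results of these data known. They cover the signal recognition particle and its receptor (SRP, SRPR), the translocon and its associated proteins (SEC61, SEC62, SEC63, SSR) and signal peptidase (SEC11, SPCS). They also cover the COPII coat and ER exit sites (SAR1, SEC13, SEC16, SEC23, SEC24, SEC31, MIA3), the p24 cargo receptors (TMED) and the COPI coat (COPA to COPZ2). The rest are the KDEL receptors (KDELR), the TRAPP tethers (TRAPPC) and the SEC22 SNAREs. Of the 74 genes, 70 reached a mean of 5 normalized reads over the libraries and were tested. SEC16B, SEC24B, TMED6 and TRAPPC6A did not reach it, and none of the 4 exceeded 10.3 normalized reads in any library.

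The cells were primary mesenchymal stem cells of bovine umbilical cord, kept before differentiation in a low glucose medium with serum. On plastic, 3 libraries come from day 0, which is 1 day after seeding, when the myogenic differentiation medium was put on, 3 from day 3 and 2 from day 21 in that medium. It holds little serum, and dexamethasone, ascorbic acid 2-phosphate and insulin-like, vascular endothelial and fibroblast growth factors. Cells on cellulose scaffolds were taken at day 21: on the smart scaffold, to which the growth factors were attached while the medium lacked them (3 libraries), and on the media scaffold, bathed in the same differentiation medium as the plastic plates (4 libraries). The sources used here do not say how many animals gave the cells. Replicates are biological by the study's design text, and p-values measure the spread between such libraries.

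A protein bound for secretion is recognised as it emerges from the ribosome by the signal recognition particle, which docks at its receptor on the ER. The nascent chain enters through the SEC61 translocon, and signal peptidase cuts off its leader. Cargo is then packed at exit sites into vesicles coated by COPII, whose SAR1 GTPase recruits the SEC23-SEC24 inner layer and the SEC13-SEC31 cage, while COPI coats return escaped ER residents, which KDEL receptors recognise, and cycling receptors of the p24 family. TRAPP complexes tether arriving vesicles and SNAREs such as SEC22B fuse them. Fibroblasts and other stromal cells load this route with collagen, whose export needs MIA3 (TANGO1) and COPII.

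Values are normalized 3′-end reads: the authors divided each library's reads by its own scaling factor. Recovered reads ran from 2197356 to 15483745 per library. Replicate 2 of plastic at day 21 had the fewest, and 1 read was worth 3.44 normalized reads there. Replicate 1 of that group had 5264578, more than day 3 replicate 3 (3118284) and smart scaffold replicate 1 (4315324). Libraries of day 3 stood apart from each other: on an axis drawn from the spread of day 3, replicates 2, 1 and 3 lay at 1.48, 0.046 and -2.00 SD, the plastic libraries of day 21 at 1.68 and 1.85, and the other 10 between -0.717 and 0.011. All 8 mesenchymal stromal markers were in the table, and their summed level was 411641 to 472274 on the smart scaffold, 443216 to 450479 on the media scaffold, 185554 to 202694 on plastic at day 21 and 139599 to 151159 at day 0. COL1A1, the largest at day 21, averaged 235487 (smart), 228228 (media) and 86796 (plastic), and COL1A2, VIM and NT5E also had higher means on both scaffolds than on plastic. PDGFRA averaged 72.5 (smart), 157 (media) and 71.3 (plastic), its smart scaffold libraries lying between the plastic ones. The others were highest on plastic at day 21: ENG averaged 576 (smart), 614 (media) and 3407 (plastic), PDGFRB 75.7, 78.1 and 131, and THY1 10141, 15475 and 18122. Of 8 blood and immune markers 5 were in the table, with summed levels of 24.1 to 30.4 on the smart scaffold, 22.2 to 30.8 on the media scaffold, 130 to 182 on plastic at day 21, 28.6 to 79.5 at day 3 and 26.8 to 30.2 at day 0, where CD34 was at 0 in all 3 libraries. Of 6 endothelial markers 2 were in the table, at summed levels of 35.9 to 72.2 on plastic at day 21 and 22.4 to 52.5 elsewhere, and the 2 epithelial markers in the table, of 5, summed to at most 6.93 in any library, with CDH1 at 0 throughout day 3. The part of the depth, the axis of day 3 and these markers in the results on plastic at day 21 was not tested, apart from the values given beside those results.

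At day 21 the secretory pathway took a larger share of the RNA on both scaffolds than on plastic. The 74 genes together took up 1.32% ± 0.039 of all normalized reads on the smart scaffold (SD, n = 3), 1.25% ± 0.011 on the media scaffold (n = 4) and 0.961% ± 0.039 on plastic (n = 2), against 0.954% ± 0.022 at day 3 and 1.03% ± 0.021 at day 0 (n = 3 each). A gene was called at a Benjamini-Hochberg adjusted p under 0.05, taken over all 10960 genes tested in limma, with a log2 change of at least 1. By this rule 24 of 70 genes rose on the smart scaffold against plastic, where 21.4% of all genes tested rose, and 0 fell, where 16% of all genes did. On the media scaffold 21 of 70 rose, beside 20.8% of all genes, and 0 fell, beside 14.6%. The absence of falls depends on the minimum size: at an adjusted p under 0.05 in limma with no minimum, 42 genes were higher and 6 lower on the smart scaffold, beside 32.8% and 31.1% of all genes, and 40 were higher and 5 lower on the media scaffold, beside 32.9% and 30.6%. The median log2 change was 0.55 on the smart and 0.57 on the media scaffold, against 0.01 and 0.02 over all genes. For every one of these called genes all scaffold libraries lay above both plastic ones, which the rule itself favours. Of all 70 genes, called or not, 80% (smart) and 78.6% (media) had no overlap in either direction. Over all genes the shares were 73.1% and 71.2%. In bulk RNA, fewer cells of a type and less RNA per cell cannot be told apart.

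Against day 0, calls by this rule, with its minimum size, were no more frequent among the 70 genes than over all genes. The exception was falls on plastic, at 28.6% beside 24.1%. On the smart scaffold 10 genes were higher than at day 0 and 2 lower, where 16.5% and 14.1% of all genes rose and fell. On the media scaffold 9 were higher and 3 lower, beside 17.5% and 14.9% of all genes. On plastic 4 were higher and 20 lower than at day 0, beside 21.2% and 24.1%. These comparisons share the libraries of day 0, and those of both scaffolds with plastic share the plastic libraries of day 21. Scaling moves these counts: with libraries rescaled to the same total, the genes called higher and lower over the whole table became 1409 and 2172 instead of 1808 and 1546 on the smart scaffold, 1481 and 2289 instead of 1913 and 1635 on the media scaffold, and 1802 and 3287 instead of 2320 and 2636 on plastic, while the pathway's counts became 9 and 4, 8 and 3, and 1 and 27. The shares against day 0 depend on the minimum size. At an adjusted p under 0.05 in limma with none, 43 genes were higher and 7 lower on the smart scaffold, beside 30.8% and 29.9% of all genes. On the media scaffold 40 were higher and 9 lower, beside 32.5% and 30.9%, and on plastic 18 and 32, beside 33.4% and 36.3%. The median log2 change was 0.49 (smart), 0.38 (media) and -0.32 (plastic), against -0.003, -0.0004 and -0.06 over all genes. By the rule, 32 of the 70 genes were called in none of the 8 comparisons made here.

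**Figure D1:**
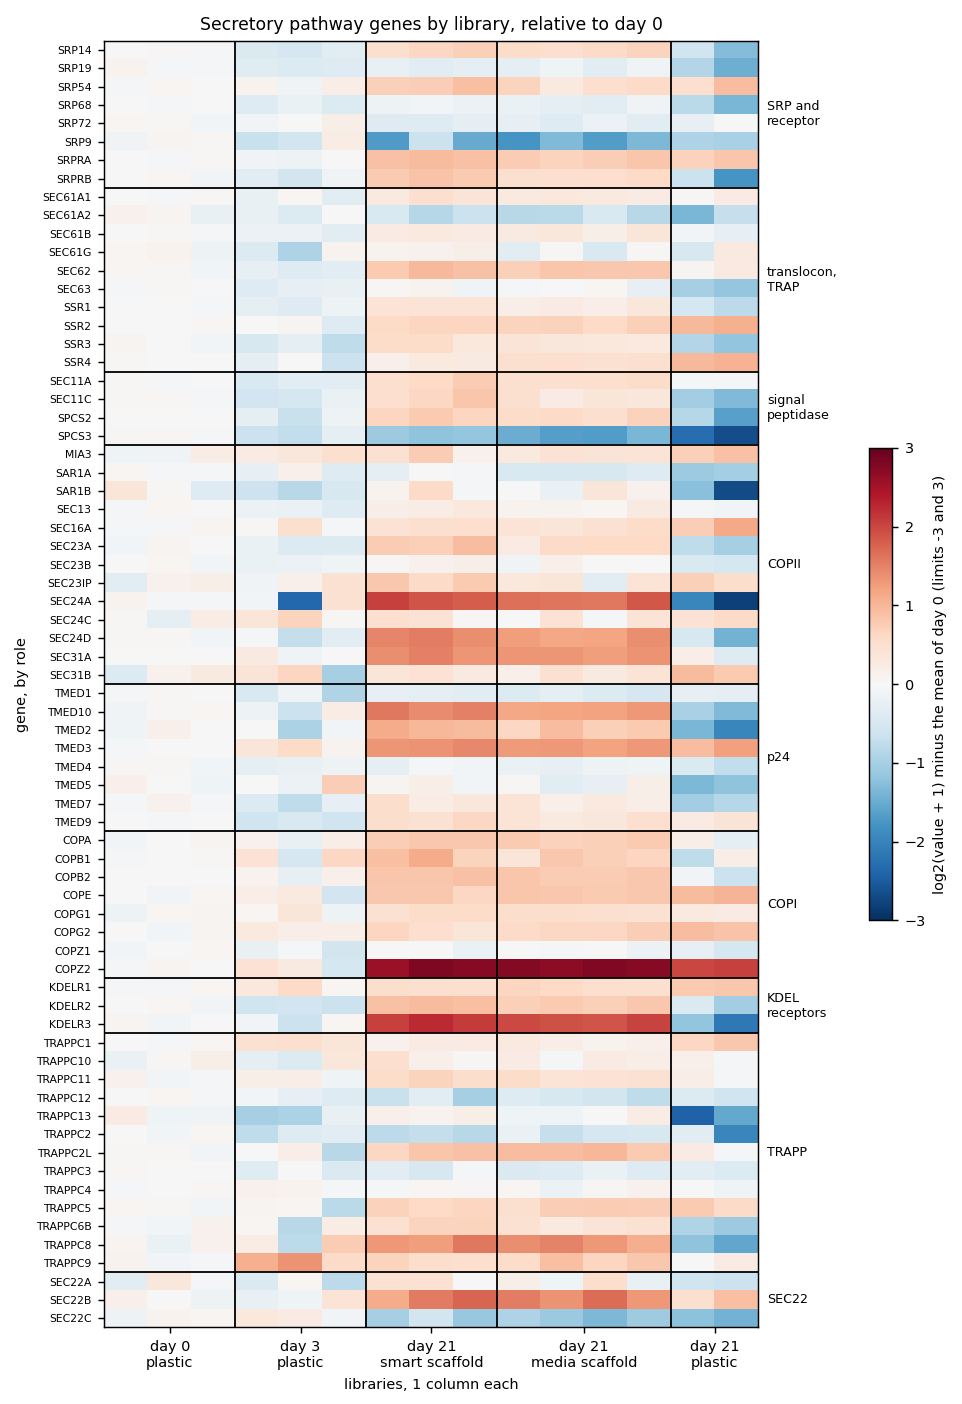
Levels of the 70 tested genes (rows, grouped by role) in each of the 15 libraries (columns, grouped by day and surface), as log2(value + 1) minus the gene's mean at day 0; red is above and blue below day 0, with colours limited at -3 and 3. SEC24A, KDELR3 and TRAPPC8 are red on both scaffolds and blue on plastic at day 21, while COPZ2 is red in all libraries of day 21.

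**Figure D2:**
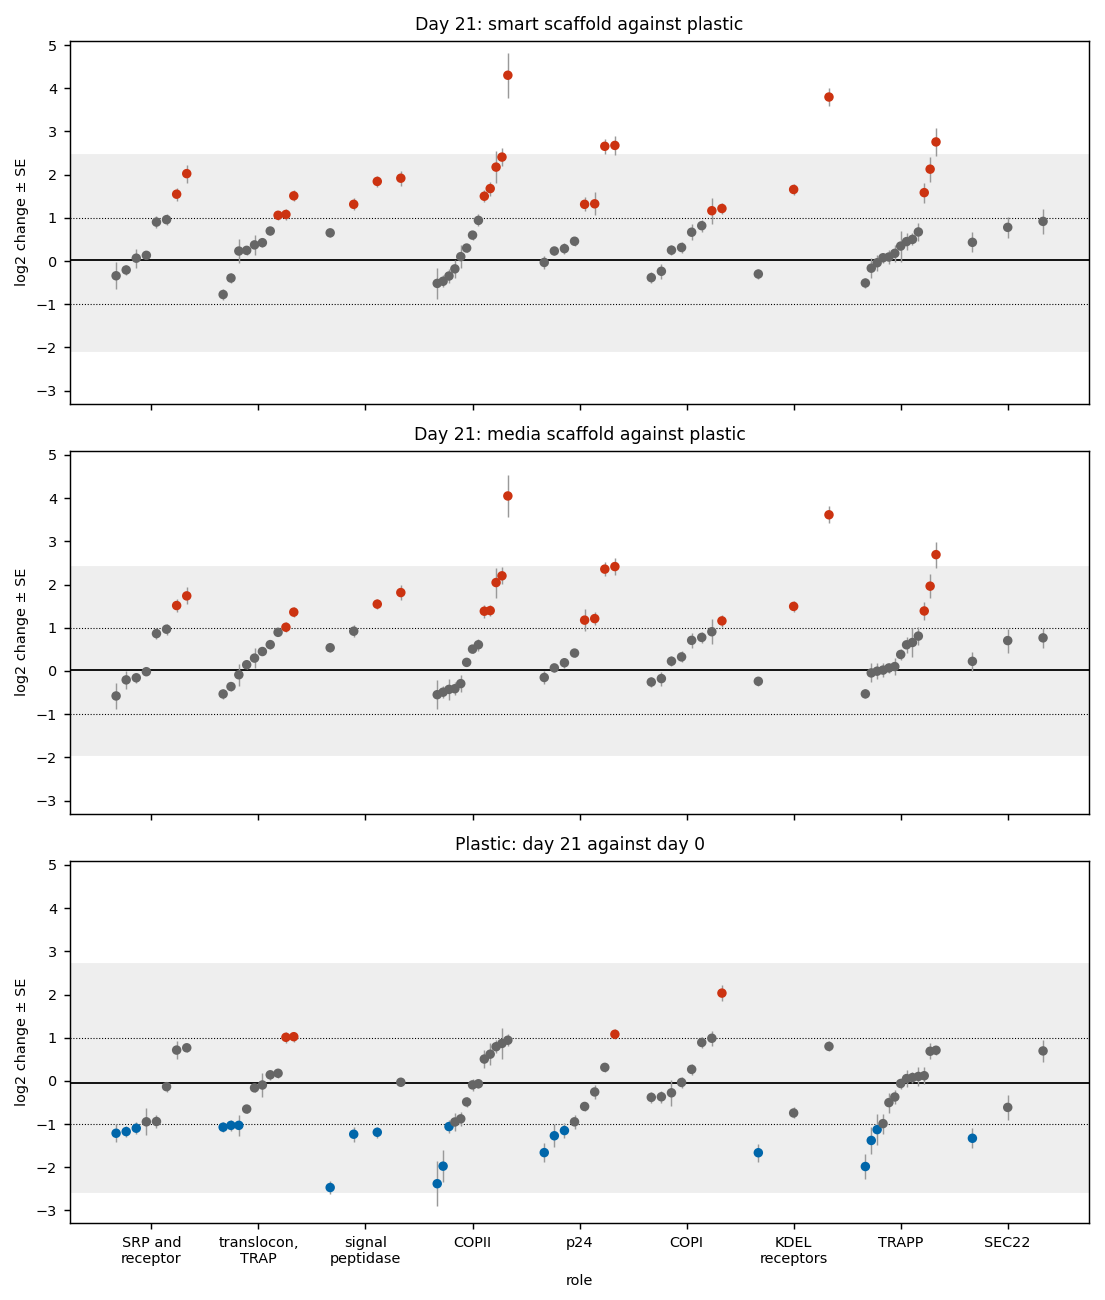
Log2 change of each tested gene (points, ± SE) by role for smart scaffold against plastic, media scaffold against plastic and, on plastic, day 21 against day 0. Red points rose, blue points fell and grey points were not called; the grey band spans the 5th to 95th percentile of all genes tested, the solid line is their median and dotted lines mark changes of 1 in either direction. The 24 and 21 called genes of the upper 2 panels all lie above the line, and 20 of the 24 called genes in the lowest panel lie below it.

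Of the signal recognition particle and its receptor, 2 of 8 genes rose on each scaffold against plastic, beside 21.4% (smart) and 20.8% (media) of all genes. SRPRB, the receptor's membrane-anchored subunit, had 972, 1027 and 974 normalized reads on the smart scaffold, 789, 805, 804 and 854 on the media scaffold and 357 and 165 on plastic at day 21. Its values at day 0 were 567, 591 and 535. All 7 scaffold libraries exceeded day 0 and both plastic libraries lay below it, with log2 changes of 2.02 ± 0.21 and 1.74 ± 0.20 (SE) for smart and media scaffold against plastic. SRP14, which with SRP9 forms the particle's Alu domain, had 1278, 1411 and 1519.6 on the smart scaffold, 1344, 1304, 1361 and 1468 on the media scaffold and 610.0 and 375 on plastic, log2 changes of 1.55 ± 0.15 and 1.51 ± 0.14. SRP14 was not called against day 0 (0.61 and 0.57). Its partner SRP9 had 18.2, 39.0 and 20.7 on the smart and 17.2, 23.9, 18.6 and 23.7 on the media scaffold and 31.7 and 30.9 on plastic at day 21, against 57.0, 64.5 and 62.8 at day 0, log2 changes of -1.29 ± 0.28 and -1.53 ± 0.26. SRP9 was called lower on both scaffolds than at day 0 and not against plastic (-0.34 and -0.58). SRP19 and SRP68 fell on plastic at day 21 against day 0 by 1.17 and 1.10 on the log2 scale, and neither passed without replicate 2 of plastic at day 21. SRPRA, the GTPase subunit of the receptor, averaged 2784 ± 76.1 on the smart scaffold, 2512 ± 119 on the media scaffold, 2543 ± 185 on plastic and 1492 ± 28.2 at day 0 (SD), and SRP54 and SRP72 were likewise called in no comparison.

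The subunits of the channel were mostly not called, and its accessory proteins split. SEC61A1, the pore subunit, averaged 5721 ± 443 normalized reads on the smart scaffold, 5317 ± 101 on the media scaffold and 4822 ± 499 on plastic at day 21, against 4361 ± 91.7 at day 0 (SD), and neither it nor SEC61B, SEC61G or SEC62 was called in any comparison. The second pore form SEC61A2 fell on plastic against day 0 (-1.03), a call lost under 7 alternatives. SEC63, which helps post-translational entry, rose on scaffolds against plastic by 1.08 (smart) and 1.01 (media) on the log2 scale, the second just past the threshold and lost under 6 alternatives. The 4 TRAP subunits, SSR1 to SSR4, bind the translocon and aid the entry of some leaders. SSR4 had 6115, 6791 and 6635 on the smart scaffold, 7673, 7892, 7531 and 7696 on the media scaffold and 10827 and 11446 on plastic at day 21. Earlier values on plastic were 4497, 5508 and 3549 at day 3 and 5647, 5455 and 5487 at day 0. Both plastic libraries of day 21 lay above all others, with a log2 change of 1.01 ± 0.13 against day 0. SSR3 went the other way, with 3318, 3321 and 2822 on the smart scaffold, 2927, 2863, 2817 and 2754 on the media scaffold and 1223 and 997 on plastic. At day 0 SSR3 had 2401, 2249 and 2121. Within 1 complex, then, SSR2 and SSR4 rose on plastic by day 21 (1.02 and 1.01) while SSR3 fell (-1.03), and SSR3 was higher on both scaffolds than on plastic (1.51 smart, 1.36 media). SSR1 was called on the smart scaffold against plastic (1.06) and at 0.89 missed the threshold on the media scaffold, a difference of 0.17 that was not called, and its call was lost without replicate 2 of plastic at day 21. The calls of SSR2, SSR3 and SSR4 against day 0 were lost without replicate 2 of plastic at day 21, and those of SSR2 and SSR4 also when libraries were rescaled to the same total, at 0.76 and 0.74.

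Signal peptidase held SPCS3, the gene with the largest fall of the 70 on plastic at day 21 against day 0. SPCS3, the subunit that is essential for cleavage in yeast, had 959, 882 and 905 normalized reads on the smart scaffold, 722, 649, 641 and 785 on the media scaffold and 418 and 323 on plastic at day 21. The SPCS3 values of day 3 were 1314, 1216 and 1689, and those of day 0 were 2081, 2088 and 1949. Every library of day 21 lay below every library of days 0 and 3, plastic lowest. The log2 changes against day 0 were -1.15 ± 0.13 (smart), -1.55 ± 0.12 (media) and -2.47 ± 0.14 (plastic), the last with an adjusted p of 8.24e-11 in limma. Against plastic at day 21 SPCS3 was called higher on the smart scaffold, with log2 changes of 1.01 to 1.50 under the alternatives. On the media scaffold its change of 0.92 against plastic was under the threshold, and the difference between the scaffolds was not called. SPCS2, another accessory subunit, had 1154, 1277 and 1153 on the smart scaffold, 1092, 1099, 1062 and 1196 on the media scaffold and 413 and 241 on plastic. Its values at day 0 were 751, 744 and 733. SEC11C, a catalytic subunit, had 1486, 1616 and 1855 on the smart scaffold, 1453, 1249, 1347 and 1318 on the media scaffold and 504 and 416 on plastic, against 1072, 1064 and 999.9 at day 0. Both thus fell on plastic against day 0 (-1.23 and -1.19) and were higher on both scaffolds than on plastic, by 1.92 and 1.81 for SPCS2 and by 1.84 and 1.55 for SEC11C (smart, then media). SEC11A, the other catalytic subunit, was called in no comparison and averaged 3113 ± 266 on the smart scaffold, 2868 ± 56.8 on the media scaffold, 1975 ± 11.4 on plastic at day 21 and 2018 ± 43.8 at day 0.

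The COPII coat held SEC24A, the gene with the largest change of the 70 between scaffold and plastic. SEC24A, a cargo-binding subunit of the coat, had 127, 113 and 108 normalized reads on the smart scaffold, 95.2, 92.5, 91.5 and 111 on the media scaffold and 6.90 and 3.44 on plastic at day 21. At day 3 SEC24A had 28.3, 5.03 and 41.1, and at day 0 it had 32.3, 28.8 and 28.4. The scaffolds were highest, at 3.88 (smart) and 3.26 (media) times the mean of day 0, and plastic at day 21 had the lowest mean, its 2 libraries holding 5 and 1 recovered reads. The log2 changes against plastic were 4.30 ± 0.52 and 4.05 ± 0.49 for smart and media scaffold (adjusted p 1.72e-06 and 1.93e-06, limma). SEC24D, another cargo-binding subunit and one needed for collagen export in zebrafish, had 2136, 2245 and 2036 on the smart scaffold, 1862, 1741, 1773 and 2061 on the media scaffold and 560.3 and 289 on plastic at day 21. Earlier values on plastic were 752, 474 and 627 at day 3 and 802, 794 and 741 at day 0. No scaffold library overlapped any plastic library of any day, with log2 changes of 1.46 ± 0.18 and 1.25 ± 0.17 against day 0. SEC24C, by contrast, was called nowhere and averaged 549.6 ± 94.9 on the smart scaffold, 509 ± 88.4 on the media scaffold and 617 ± 45.5 on plastic at day 21.

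SEC31A, which builds the outer cage, had 1778, 1954 and 1706 normalized reads on the smart scaffold, 1701, 1706, 1613 and 1723 on the media scaffold and 781 and 522 on plastic at day 21. At day 0 SEC31A had 674, 679 and 690.0. It rose on scaffolds by 1.41 and 1.31 against day 0 and by 1.50 and 1.40 against plastic, while on plastic it was not called between day 21 and day 0 (-0.09). SEC23A, the inner layer's GTPase activator, had 154, 148 and 170.1 on the smart scaffold, 107, 134, 136 and 137 on the media scaffold and 52.4 and 44.7 on plastic, a rise against plastic of 1.68 and 1.38. SAR1B, the GTPase that starts coat assembly and whose loss blocks chylomicron export in humans, had 29.7, 41.6 and 26.4 on the smart scaffold, 27.9, 23.9, 35.6 and 30.6 on the media scaffold and 11.04 and 3.44 on plastic, against 35.9, 28.3 and 20.9 at day 0. Its scaffold libraries overlapped those of day 0, and its rise against plastic (2.17 and 2.05) stood beside a fall on plastic of 1.97, with 8 and 1 recovered reads in the plastic libraries. SAR1A fell on plastic too (-1.06) and was not called on scaffolds. SEC13, the cage partner of SEC31, SEC16A, the exit site scaffold, MIA3, the collagen export receptor, and SEC23B, SEC23IP, SEC24C and SEC31B were called in no comparison. MIA3 averaged 505 ± 108 on the smart scaffold, 475 ± 20.04 on the media scaffold, 633 ± 52.2 on plastic at day 21 and 367 ± 49.4 at day 0.

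Of the p24 receptors, 4 of 8 rose on each scaffold against plastic, beside 21.4% (smart) and 20.8% (media) of all genes. They were TMED2, TMED10, TMED5 (1.32 smart, 1.18 media) and TMED7 (1.31 smart, 1.21 media). TMED2, which cycles with TMED10 between ER and Golgi, had 2469.6, 2255 and 2181 normalized reads on the smart scaffold, 1735, 2152, 1855 and 1960.4 on the media scaffold and 440.2 and 292 on plastic at day 21. The TMED2 values of day 3 were 1124, 584 and 1066, and those of day 0 were 1032, 1254 and 1130.2. TMED10 had 1342, 1191 and 1280.5 on the smart scaffold, 991, 1013, 1032 and 1095 on the media scaffold and 225 and 179 on plastic at day 21. At day 3 TMED10 had 399, 285 and 525, and at day 0 it had 416, 459 and 465. For both genes all scaffold libraries lay above and both plastic libraries of day 21 below every library of days 0 and 3. Against plastic TMED2 changed by 2.68 ± 0.22 and 2.42 ± 0.21 and TMED10 by 2.66 ± 0.18 and 2.36 ± 0.17 (log2 ± SE, smart and media). Against day 0 TMED10 rose on both scaffolds (1.51 and 1.21), the media call being lost under rescaling to the same total (0.96). TMED2 reached the threshold on the smart scaffold at 1.02 and not on the media scaffold at 0.76, a difference of 0.26 between the scaffolds that was not called. The smart scaffold call of TMED2 was lost under 4 alternatives. TMED3 followed another course, with 3878, 3988 and 4213 on the smart scaffold, 3759.7, 3867, 3609 and 3821 on the media scaffold and 2951 and 3684 on plastic at day 21. Earlier values on plastic were 1993, 2323 and 1691 at day 3 and 1532, 1584 and 1563 at day 0. Here every library of day 21 exceeded every library of days 0 and 3, with log2 changes against day 0 of 1.37 (smart), 1.27 (media) and 1.08 (plastic), the plastic call being lost under rescaling to the same total (0.81). TMED1, TMED4 and TMED9 were called in no comparison.

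The COPI coat binds membranes as 1 preassembled complex. Of its 8 genes, 2 rose on the smart and 1 on the media scaffold against plastic, beside 21.4% and 20.8% of all genes. COPB2, the β′ subunit, rose on both scaffolds against plastic (1.22 smart, 1.16 media) and without plastic replicate 2 neither value reached 1. COPB1, the β subunit, passed on the smart scaffold (1.16) and not on the media scaffold (0.91), a difference of 0.26 that was not called, and its call was lost without plastic replicate 1. COPA, the α subunit, averaged 1142 ± 36.7 normalized reads on the smart scaffold, 1109 ± 38.9 on the media scaffold, 655 ± 149 on plastic at day 21 and 664 ± 37.3 at day 0 and was not called, and COPG1, COPG2 and COPZ1 were called in no comparison. COPZ2, the less common form of the ζ subunit, had 3226, 3720.3 and 3561 on the smart scaffold, 3649, 3482, 3705 and 3559.6 on the media scaffold and 2175 and 2227 on plastic at day 21. The COPZ2 values of day 3 were 729, 643 and 375, and those of day 0 were 513, 565 and 535. All 9 libraries of day 21 lay above all 6 earlier ones, and scaffolds above plastic. The log2 changes against day 0 were 2.70 ± 0.16 (smart), 2.74 ± 0.15 (media) and 2.03 ± 0.18 (plastic), the means of the 3 groups in that order being 6.51, 6.69 and 4.09 times the mean of day 0, and the gap to plastic at day 21 (0.67 and 0.71) was under the threshold.

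The 3 KDEL receptors, which return escaped chaperones to the ER, differed from each other. KDELR3 had 2834, 3253 and 2943 normalized reads on the smart scaffold, 2683, 2589.9, 2549.7 and 2783 on the media scaffold and 299 and 155 on plastic at day 21. At day 3 KDELR3 had 643, 439.7 and 707, and at day 0 it had 724, 646 and 683. No group of day 21 overlapped day 0, the scaffolds standing above it at 4.40 and 3.87 times its mean and plastic below at 0.332 times. The log2 changes against plastic, 3.80 ± 0.21 (smart) and 3.62 ± 0.20 (media), had adjusted p of 1.82e-10 and 2.19e-10 in limma. KDELR2 had 6070.0, 6321 and 6163 on the smart scaffold, 5369.9, 5626, 5401 and 5719 on the media scaffold and 2421 and 1588 on plastic at day 21, against 3327, 3419 and 3105 at day 0, a rise against plastic of 1.66 and 1.49. KDELR1 had 4310.2, 4217 and 4229 on the smart scaffold, 4692, 4576, 4265 and 4231 on the media scaffold and 5226 and 5244 on plastic. Its values at day 0 were 2940.1, 2952 and 3138. Its plastic libraries of day 21 were the highest, and it was called in no comparison.

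Among the TRAPP subunits 3 of 13 rose on each scaffold against plastic, a share near that of all genes (21.4% smart, 20.8% media). TRAPPC8, a subunit of the TRAPPIII complex, had 106, 102 and 129.9 normalized reads on the smart scaffold, 113, 121, 105 and 90.8 on the media scaffold and 17.9 and 13.7 on plastic at day 21. Earlier values on plastic were 49.8, 24.1 and 73.2 at day 3 and 45.0, 36.8 and 46.2 at day 0. It stood above day 0 in all scaffold libraries (1.38 and 1.31) and below it in both of plastic (-1.38, or -0.34 and not called with the axis of day 3 as a covariate), with changes against plastic of 2.76 ± 0.32 and 2.69 ± 0.30. TRAPPC13, another subunit of that complex, had 46.2, 45.1 and 47.1 on the smart scaffold, 37.8, 37.8, 41.3 and 48.4 on the media scaffold and 6.90 and 13.7 on plastic. At day 0 TRAPPC13 had 49.2, 37.9 and 38.7. Its scaffold libraries overlapped day 0, and its gap to plastic (2.13 and 1.96) went with a fall on plastic of 1.98. The core subunit TRAPPC6B rose against plastic by 1.58 and 1.39, and TRAPPC2, another core subunit, fell on plastic against day 0 by 1.13, a call lost under 6 of 16 alternatives, edgeR and DESeq2 among them. TRAPPC1, TRAPPC2L, TRAPPC3, TRAPPC4, TRAPPC5, TRAPPC10, TRAPPC11 and TRAPPC12 were called in no comparison.

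The 3 SEC22 genes diverged. SEC22B, the SNARE of ER to Golgi vesicles, had 56.1, 76.4 and 87.4 normalized reads on the smart scaffold, 74.7, 65.7, 82.6 and 64.2 on the media scaffold and 35.9 and 48.1 on plastic at day 21. Its values at day 0 were 28.1, 25.6 and 22.5. It rose on both scaffolds against day 0 (1.47 ± 0.22 and 1.46 ± 0.21), whose libraries all lay below those of the scaffolds. SEC22C, a relative without the SNARE motif, had 28.1, 38.2 and 25.3 on the smart scaffold, 29.5, 25.9, 21.9 and 26.7 on the media scaffold and 23.5 and 20.6 on plastic. At day 0 SEC22C had 50.6, 61.3 and 58.8. All libraries of day 21 lay below day 0, the fall being called on the media scaffold (-1.11) and on plastic (-1.33) but not on the smart scaffold (-0.90), and the difference between the scaffolds (0.21) was not called. SEC22A was called in no comparison.

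**Figure D3:**
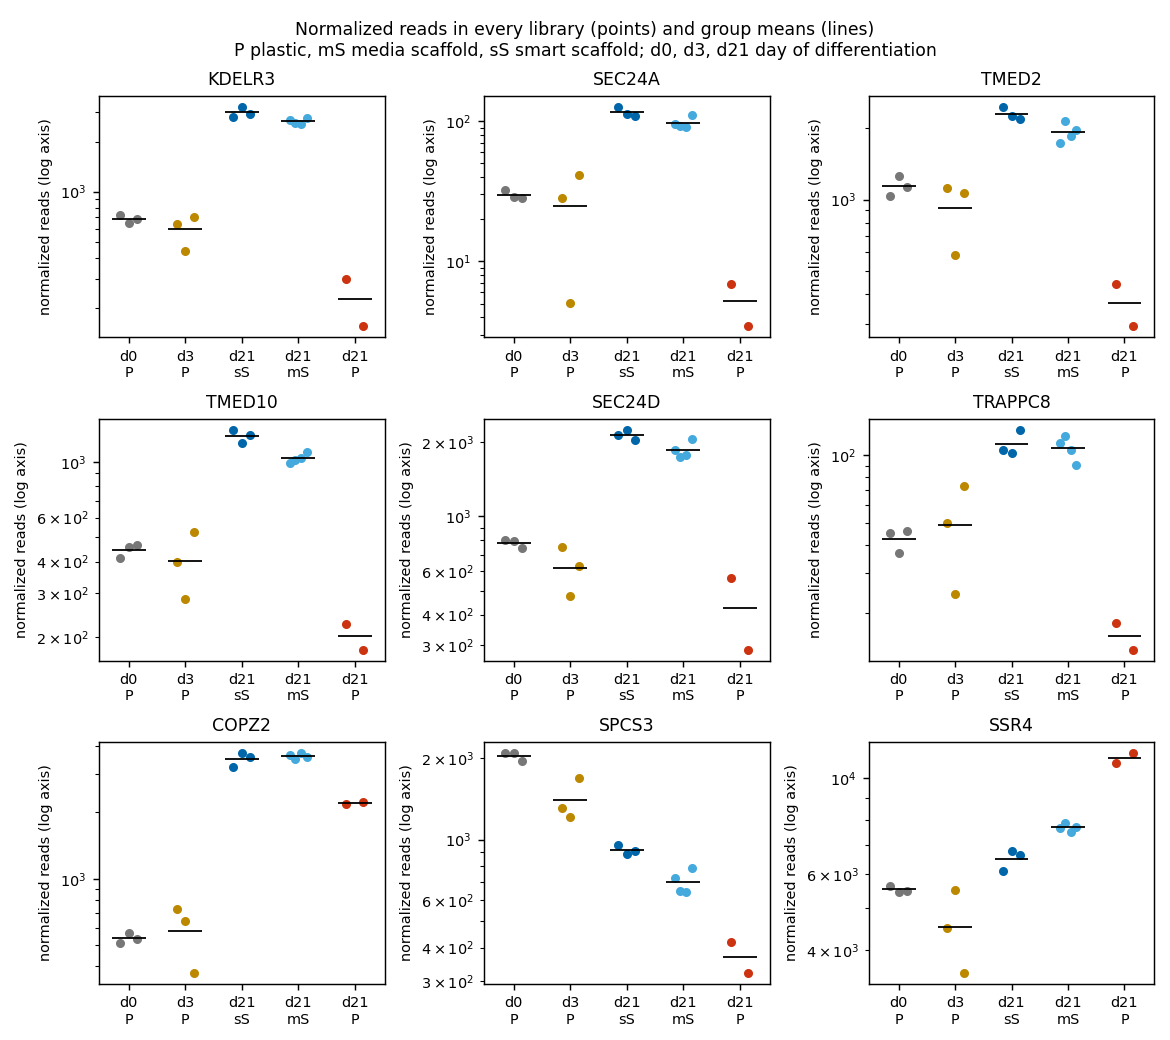
Normalized reads (log axis) of 9 genes in every library (points) with group means (lines), for day 0 and day 3 on plastic and smart scaffold, media scaffold and plastic at day 21. KDELR3, SEC24A, TMED2, TMED10, SEC24D and TRAPPC8 are highest on scaffolds and lowest on plastic at day 21; COPZ2 is high in all of day 21, SPCS3 is lower there than before, and SSR4 is highest on plastic at day 21.

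On plastic 1 gene was called by day 3 and 13 at day 21 against day 3. At day 3 against day 0 it was TRAPPC9, a TRAPPII subunit, where 6.27% of all genes rose and 3.73% fell. It had 176, 215 and 125 normalized reads at day 3 and 89.3, 79.5 and 82.1 at day 0, a log2 change of 1.00 (adjusted p 0.000268, limma) that sat on the threshold and was lost under 7 alternatives. At day 21 on plastic it had 82.8 and 99.7. The median of the 70 genes was -0.21 at day 3 against -0.02 over all genes, and 17 genes were lower and 4 higher at an adjusted p under 0.05 with no minimum size, beside 15.3% and 16.5% of all genes. At day 21 against day 3 the rule called 4 genes higher and 9 lower, beside 15.5% and 19.4% of all genes. The 4 were COPZ2 (1.97), SSR4 (1.32), SSR2 (1.12) and COPE (1.01, lost under 8 of 16 alternatives), and the 9 ranged from TRAPPC13 (-1.26) to SPCS3 (-1.92), with SEC24A the 1 gene whose libraries overlapped between the days. The share of the pathway that fell, 28.6% against day 0 and 12.9% against day 3, is thus near or below that of all genes, and the share that rose, 5.71% in each, is below it. In all, 24 of 70 genes were called on plastic at day 21 against day 0, beside 45.2% of all genes. Without replicate 2 of that group, the shallowest library, 1 library was left there. The median log2 change against day 0, -0.32 with both libraries and -0.06 over all genes, was then -0.28 and -0.04. The calls lost without that library were those of SEC63, SPCS2, SRP19, SRP68, SRPRB, SSR2, SSR3, SSR4, TMED10, TMED3 and TRAPPC2 against day 0. Against day 3 they were those of KDELR3, SAR1B, SEC24A and COPE. With all libraries rescaled to the same total, the median of all genes moved to -0.32 against day 0 and -0.37 against day 3, and against day 3 the genes called became 1 higher and 20 lower, beside 1139 and 3071 of all genes instead of 1700 and 2124.

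The spread within day 3 ran along part of the gap between scaffold and plastic. Of the 21 genes higher on the media scaffold than on plastic, 19 were lower in day 3 replicate 2 than in replicate 3, as were 71.8% of all 2281 genes that rose there and 46.0% of all genes tested. SEC24A, with 5.03 normalized reads in replicate 2 and 41.1 in replicate 3, and TRAPPC8, with 24.1 and 73.2, show it. Across the 70 genes Spearman's rho between the 2 differences was -0.51, and over all 10960 genes -0.33, as a description across genes that share these libraries. With each library's place on the axis of day 3 as a covariate, chosen after the data were seen, 24 genes rose on the smart and 20 on the media scaffold against plastic, including 19 and 16 of those called without it. Over all genes 2014 rose and 1472 fell on the smart and 1987 rose and 1377 fell on the media scaffold in that fit. The calls lost were COPB2, TMED5 and TRAPPC6B on both scaffolds, COPB1 and SSR1 on the smart and SEC63 and TMED7 on the media scaffold. On plastic against day 0 the count became 2 higher and 12 lower, beside 1939 and 2218 of all genes. The calls lost there were those of SEC11C, SEC24A, SEC61A2, SPCS2, SRPRB, SSR2, SSR4, TMED3, TMED5, TMED10, TRAPPC2 and TRAPPC8.

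**Figure D4:**
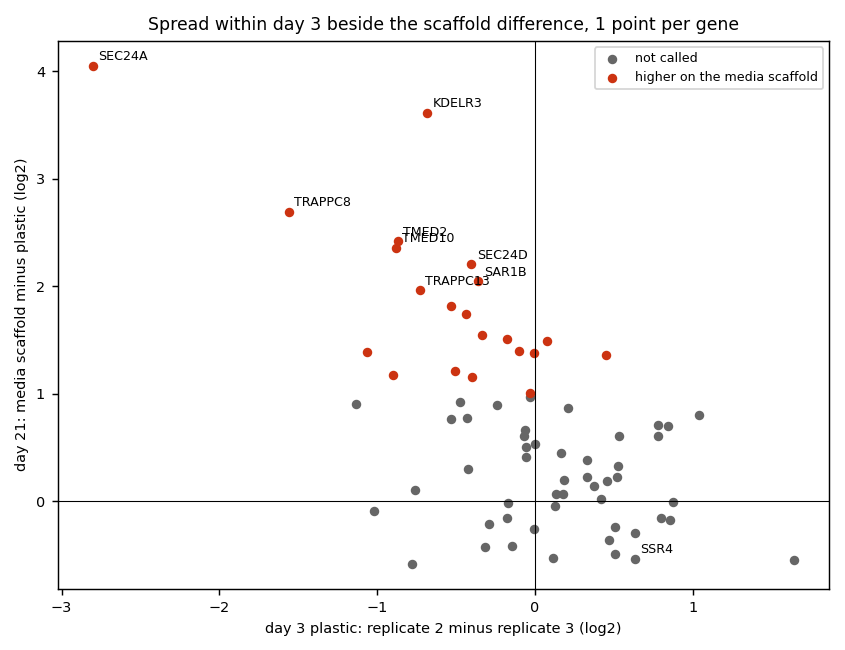
Each point is 1 of the 70 tested genes: the horizontal axis is the log2 difference of day 3 replicate 2 minus replicate 3, the vertical axis the log2 change of media scaffold against plastic at day 21. Of the 21 genes called higher, SEC24A and KDELR3 among them, 19 lie left of 0, and Spearman's rho across the genes is -0.51.

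The 2 scaffolds were not told apart by any of the 70 genes. By the rule 0 rose and 0 fell between the smart and the media scaffold, where 0.073% of all genes rose and 0.83% fell; edgeR and DESeq2 on recovered reads also called 0. At an unadjusted p under 0.05 limma gave 6 of 70 (8.57%) beside 13.1% of all genes. The log2 differences ran from -0.31 (TRAPPC2) to 0.53 (SEC23IP) with a median SE of 0.13. Of the 70, 55 were above 0, with a median of 0.10 against -0.003 over all genes. The summed share of reads of the pathway was 1.28% to 1.36% on the smart and 1.23% to 1.26% on the media scaffold. These ranges did not overlap, and the difference in share was not tested. TMED10 differed by 0.30 ± 0.15 (1342, 1191 and 1280.5 on the smart and 991, 1013, 1032 and 1095 on the media scaffold) and SPCS3 by 0.39 ± 0.12. For both, chosen after their values were seen, the libraries did not overlap between the scaffolds and the size was under the threshold. Such a lack of overlap was found for 18 of the 70 genes (25.7%) and for 20.4% of all genes.

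Ratios of related genes within a library, taken after adding 1 to each value, hardly depend on the scaling of the library. They were compared between the 7 scaffold libraries of day 21 and the 3 of day 0 for the 13 of 16 listed pairs whose members were both tested, with an exact two-sided permutation test, whose smallest possible p is 0.0167 (0.0271 after adjustment over the pairs). The ratio differed at an adjusted p under 0.05 for 9 pairs, 8 of them at that smallest p. Pairs of other genes were not tested, so no share over all pairs stands beside this count. Of all single genes tested, 72.9% (smart) and 72.4% (media) had no overlap with day 0. With 1 library of day 0 left out, the smallest p rises to 0.0556 and 0 pairs pass. COPZ2 over COPZ1 averaged 1.54 ± 0.18 on the smart scaffold, 1.57 ± 0.07 on the media scaffold and 1.19 ± 0.22 on plastic at day 21, against -1.23 ± 0.06 at day 0 (log2 ratio ± SD), so the sign of the ratio changed by day 21 on every surface. KDELR3 over KDELR2 averaged -1.04 ± 0.07 on the smart scaffold, -1.06 ± 0.05 on the media scaffold and -3.18 ± 0.24 on plastic, against -2.26 ± 0.12 at day 0. Here scaffolds and plastic lay on opposite sides of day 0. The scaffold libraries also held relatively more SEC24D to SEC24C (1.08 log2 above day 0), SEC31A to SEC31B (1.02), SEC23A to SEC23B (0.57) and KDELR2 to KDELR1 (0.29, adjusted p 0.0481). On plastic at day 21 these ratios averaged -0.61, 3.35, -2.52 and -1.42, below their day 0 means of 0.84, 4.31, -2.13 and 0.12. The scaffold libraries held less SEC22C to SEC22B (-2.48), SEC22A to SEC22B (-1.28) and SEC61A2 to SEC61A1 (-1.03). So did plastic at day 21, with means of -0.89, -0.74 and -7.29 against 1.13, 0.57 and -6.12 at day 0, which was not tested. The pairs SAR1A and SAR1B (-0.44), COPG2 and COPG1 (0.07), SEC11C and SEC11A (-0.07) and TMED3 and TMED10 (-0.02) had adjusted p of 0.108 to 0.883. A ratio shows that the 2 genes changed unequally, and their own values say which moved. KDELR3, SEC24D, SEC31A, COPZ2, SEC22B and, on the media scaffold, SEC22C are members of these 9 pairs that were also called against day 0, so these ratios restate part of those calls.

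**Figure D5:**
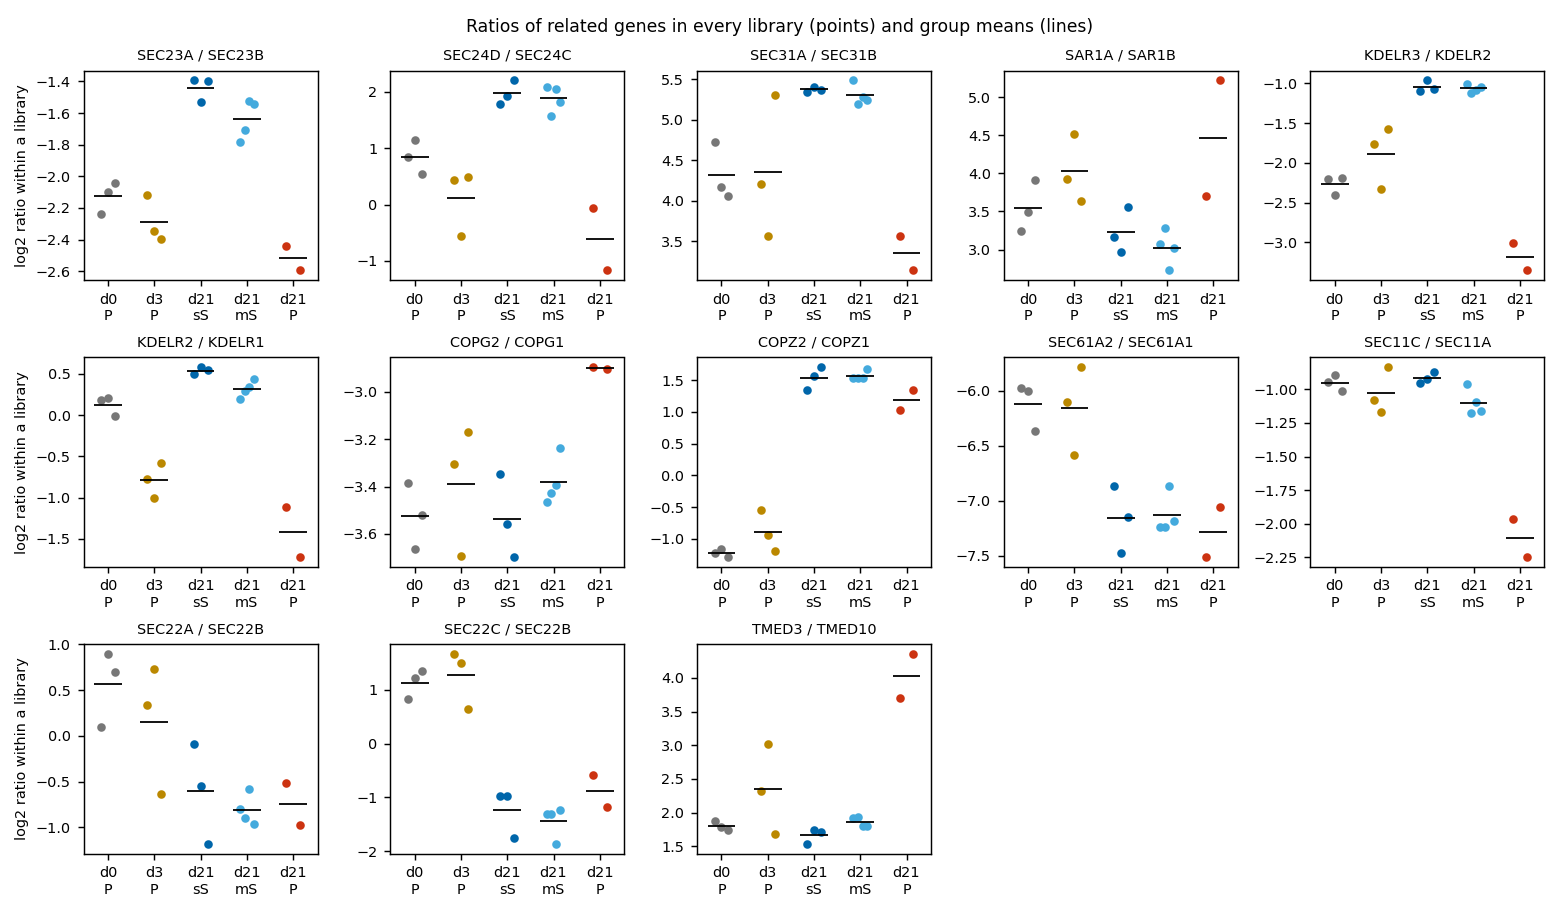
Log2 ratio of 13 pairs of related genes within each library (points; lines are group means), for day 0 and day 3 on plastic and smart scaffold, media scaffold and plastic at day 21. COPZ2 over COPZ1 is above 0 in every library of day 21 and below 0 in every earlier one. SEC22C over SEC22B is lower on both scaffolds and on plastic at day 21 than at day 0.

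Other genes of the route, 66 by list, were counted by the same rule. GOSR1, RAB1B and GORASP1 were too low to be tested, which left 63. Of the 63, 25 rose and 1 fell on each scaffold against plastic, beside 21.4% and 16% of all genes (smart) and 20.8% and 14.6% (media). On plastic 5 rose and 24 fell against day 0, beside 21.2% and 24.1%. Against day 0, 8 rose and 4 fell on the smart scaffold, beside 16.5% and 14.1%, and 3 rose and 4 fell on the media scaffold, beside 17.5% and 14.9%. By the rule in limma 0 were called between the scaffolds. Oligosaccharyltransferase, which adds glycans to the entering chain, and the TRAM proteins beside the translocon were the list with the most calls: 10 of 13 rose on each scaffold against plastic and 8 of 13 fell on plastic against day 0. TRAM1, which helps leaders into the channel, had 1195, 1334 and 1239 normalized reads on the smart scaffold, 1055, 997, 1112 and 1002 on the media scaffold and 91.1 and 89.3 on plastic at day 21. Its values at day 0 were 709, 612 and 570.4. The log2 changes against plastic were 3.78 ± 0.27 and 3.51 ± 0.26, beside 3.22 and 3.19 for MAGT1 and 3.04 and 2.47 for the catalytic subunit STT3A. ARCN1, the δ subunit of COPI, rose by 2.52 and 2.46, LMAN1 (ERGIC-53), a lectin receptor, by 2.22 and 1.79, and RINT1, of the NRZ tether, by 3.33 and 3.36, the last at 6.90 and 3.44 normalized reads on plastic.

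Of the transcription factors that drive secretory genes, CREB3L1, which activates the type I collagen gene in osteoblasts of mice, had 8005, 7899 and 7210.5 normalized reads on the smart scaffold, 7645, 8316, 8163 and 7083 on the media scaffold and 3645 and 3594 on plastic at day 21. The CREB3L1 values of day 3 were 1422, 2233 and 1093, and those of day 0 were 3176, 2986 and 3509. The scaffold libraries exceeded all others, with log2 changes of 1.09 ± 0.19 and 1.10 ± 0.18 against plastic and 1.26 ± 0.17 and 1.28 ± 0.16 against day 0. Its relative CREB3L2, which activates COPII genes in mouse cartilage, had 69.3, 57.3 and 51.7 on the smart scaffold, 70.6, 70.6, 81.8 and 56.3 on the media scaffold and 219 and 357 on plastic at day 21. At day 3 CREB3L2 had 115, 103 and 119.6, and at day 0 it had 61.2, 41.6 and 67.1. Its plastic libraries of day 21 were the highest, and it was lower on the scaffolds, with log2 changes of -2.23 (smart) and -2.00 (media) against plastic. XBP1, a factor of the unfolded protein response, had 29.7, 21.7 and 20.7 normalized reads on the smart scaffold, 25.4, 15.9, 16.2 and 15.8 on the media scaffold and 11.04 and 24.1 on plastic at day 21, against 9.14, 11.2 and 9.47 at day 0. Its log2 changes against day 0 were 1.18 (smart, called), 0.80 (media) and 0.67 (plastic), the last 2 not called, and the difference between the scaffolds (0.38) was not called. ATF6, another such factor, fell in all 3 groups of day 21, with log2 changes of -1.09 (smart), -1.21 (media) and -1.44 (plastic) against day 0. Its values were low: 16.5, 12.1 and 4.60 on the smart scaffold, 6.57, 9.95, 7.29 and 13.8 on the media scaffold and 8.28 and 6.87 on plastic. At day 0 ATF6 had 25.3, 20.3 and 21.3. In the plastic libraries of day 21, 1 read was worth 1.38 and 3.44 normalized reads, so these values rest on few reads. ATF4, which answers amino acid shortage, was called in no comparison. Its libraries of day 3, at 2329, 2601 and 2392 normalized reads, nevertheless all lay below those of day 0, at 4665, 4815 and 4729.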

How the data were processed

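RNA of bovine cells was profiled by MARS-seq, a 3′-end method, per the labels. Of 17 libraries in 6 groups, 15 in 5 groups were used. The names of 2 columns of values fit no sample title, and these columns entered no step, so cells on scaffolds at day 0 were not analysed here. The submitters' processing notes name cutadapt, STAR, HTSeq and DESeq and the build ARS-UCD1.2, with no versions. Whether molecular identifiers or strand were used is not stated in these sources, so overlapping or antisense genes, and near-identical copies, cannot be told apart.

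In the deposited table each gene has a normalized signal, its read count over a factor for the library, as the authors deposited it. Expressed in units of 1 read, 100% of the values were whole within 0.1, and these recovered reads served the count alternatives and the depths. Precision follows depth: 1 read was worth 0.395 to 3.44 normalized reads, and the p-values cover the spread between libraries.

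Testing used limma 3.58.1 under R 4.3.3 on log2(value + 1) of the deposited values, with trended, robust variances, in 1 fit of all groups without a replicate block, two-sided, with Benjamini-Hochberg adjustment within each comparison. Fold changes on this scale understate low genes. A minimum mean of 5 kept 10960 of 12894 genes. Ratios of means are of the untransformed values. Pair ratios used exact permutation in scipy 1.17.1. The scripts were tested on simulated data.

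The 74 genes, the role, pathway and marker lists and the pairs were chosen with earlier results of these data known. Named in full were, per comparison, up to 8 called genes with the largest change in each direction whose libraries did not overlap, the listed pairs, and of the other lists the transcription factors and examples among the called genes with the largest change. Other genes were named to account for every member. BHLHA15, on the list of transcription factors, was not analysed here. Of the 74 symbols 73 were found in the RefSeq gene table, all but SRPRB, and no coordinates or sequences are given. Alternatives were pseudocounts of 0.5 and 4, no filter, a minimum mean of 20, rescaling, quantile normalization, a fit of just the groups compared, the block, edgeR 4.0.16 and DESeq2 1.42.0 on recovered reads, each library left out, and the day 3 axis as a covariate.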

Additional observations from a re-analysis of the deposited data

Results flagged for a closer look

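With 4 libraries, the media scaffold was the 1 group in which a single library could be examined for standing far from the rest, and in 6 of 74 genes the highest or lowest library lay further from its neighbour, relative to the group's range, than Dixon's 95% limit for 4 values allows. Chance gives about 1 such case in 20 groups. SEC23A was lowest in replicate 1 at 107 normalized reads and TRAPPC5 lowest in replicate 1 at 1656. SEC23IP was lowest in replicate 3 at 24.3, SEC24B highest in replicate 3 at 4.86 and SEC61A2 highest in replicate 3 at 44.5. SAR1A was highest in replicate 4 at 255. The rise of SEC23A against plastic was called under each alternative tried, and the other 5 were not called on the media scaffold in any comparison.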

How the results depend on the processing

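The 120 single results were the called genes in each comparison and the 13 tested pairs, called or not. Their 1926 values under alternatives gave 1786 with the same call, 140 past the threshold no longer and 0 called results reversed. A pair that was not called counts as the same where it stayed uncalled. By this count 72 results stayed the same throughout, with no called pair among them. At day 3 against day 0, 1 gene was called, and 0 with a pseudocount of 4, under quantile normalization or with the day 3 axis as a covariate. On plastic at day 21 against day 3, 13 became 21 under rescaling and 6 with that covariate, and against day 0, 24 became 14 with it. That covariate was chosen after the data were seen, and the cause of these shifts was not tested. Leaving out 1 library gave 0 to 2 genes for day 3 against day 0, 12 to 19 and 14 to 29 for plastic at day 21 against day 3 and day 0, 22 to 27 and 20 to 27 for smart and media scaffold against plastic, 11 to 13 and 12 for the scaffolds against day 0, and 0 between scaffolds. For the pairs it gave 0 to 9 of 9, since with 2 libraries of day 0 the smallest p is 0.0556. Over all genes, the 8 higher and 91 lower between the scaffolds became 2 and 51 without media replicate 2, 5 and 56 without media replicate 1, 9 and 52 without media replicate 3, and 6 and 56 without smart replicate 2. Whether equal replicate numbers pair the libraries was not settled. Correlations of the deviations of equally numbered libraries from their group means ran from -0.074 to 0.157, and low values cannot exclude a shared source. The 2 above 0.1 belong to 2 pairs of plastic at day 21 and day 3. They are not independent, since the deviations of the 2 libraries of day 21 mirror each other. With the replicate number as a block, 21 and 12 genes were called for plastic at day 21 against day 0 and day 3, and the other 6 counts were as without it. Depth limits the low genes most, since SEC24A and SAR1B rest on 1 read in the shallowest library.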
